A study of Mus musculus with 6 samples.

Results

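Circular RNAs (circRNAs) from 4 genes of extracellular and cell surface signalling, Pcsk5, Bmper, Ror1 and Ism1, were followed through differentiation of mouse brown preadipocytes. A circRNA is closed by a back-splice junction, which joins the end of a downstream exon to the start of an upstream one. Members were all listed circRNAs lying wholly inside a window around one of these genes and on its strand, on the mouse build mm9 (minus strand of chromosome 19 for Pcsk5, plus strands of chromosomes 9, 4 and 2 for Bmper, Ror1 and Ism1). The rule found 12 of the 3869 listed circRNAs, 3 from Pcsk5, 5 from Bmper, 3 from Ror1 and 1 from Ism1, and 0 other listed circRNAs overlapped the 4 regions. The genes were chosen by the CPM of their circRNAs at the 3 days, which are the values described here. Every difference between days below is therefore a description, and a gene's rise or decline is no independent finding.

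The study asked which circRNAs accompany brown adipogenesis. Stromal vascular cells of 6-week-old C57BL/6 mice were grown to 90% confluence (day 0, which the labels also call proliferation). They then spent 4 days in induction medium with insulin, dexamethasone and isobutylmethylxanthine (day 4), and 4 more days in medium that held insulin and T3, a thyroid hormone (day 8). Each day had 2 libraries, made from total RNA depleted of ribosomal and linear RNA, and the labels do not say whether the 2 came from separate cultures or animals. The labels name an inguinal brown depot as the source. The table pairs no row with a host gene, so markers of brown adipocytes or of other stromal cells were not analysed here, and fewer cells of a type cannot be told apart from less circRNA per cell.

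Pcsk5 encodes a proprotein convertase, a protease of the secretory pathway that activates precursor proteins by cutting after basic residues. Bmper encodes a secreted protein that binds bone morphogenetic proteins (BMPs) and tunes their signalling, and BMPs take part in the commitment of brown fat precursors. Ror1 encodes a receptor of the cell membrane that binds Wnt5a. Ism1 encodes isthmin-1, a secreted protein that adipocytes release and that promotes glucose uptake. A circRNA is made from the primary transcript of its host in competition with linear splicing, and its level need not follow that of the messenger RNA, which was not measured here.

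The host labels were checked by length. For each of the 12 circRNAs, the genomic span on mm9 equalled, to the base, the distance between the start of an annotated exon and the end of the same or a later exon of the named gene in GENCODE M21 (build GRCm38), and exactly 1 such exon pair had that span. The transcripts used had 21 exons for Pcsk5, 15 for Bmper, 9 for Ror1 and 6 for Ism1, which gave 231, 120, 45 and 21 possible exon pairs. Within a gene, 1 shift placed all members on their exons, so their distances from one another matched too. Only lengths were compared, and no coordinate was carried from one build to the other. The circRNAs are named below by the exons they join.

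The junctions are what the sequencing reads of a circRNA have to cross. Of the 12 circRNAs, 8 reached 10 inferred reads in 2 or more libraries and are described one by one. Their junctions are shown with the last 30 bases of the downstream exon in lower case and the first 30 bases of the upstream exon in capitals, 5′ to 3′, in DNA letters. The sequences were built from the GENCODE M21 transcripts (GRCm38), not read from the libraries.
Pcsk5 exons 6 to 9: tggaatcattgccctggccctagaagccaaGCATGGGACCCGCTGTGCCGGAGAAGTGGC
Pcsk5 exons 6 to 7: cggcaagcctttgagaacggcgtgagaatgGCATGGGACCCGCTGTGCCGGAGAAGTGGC
Bmper exons 3 to 6: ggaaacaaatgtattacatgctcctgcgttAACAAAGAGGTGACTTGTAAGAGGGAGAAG
Bmper exons 12 to 13: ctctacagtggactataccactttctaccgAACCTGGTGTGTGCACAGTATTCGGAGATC
Bmper exons 7 to 13: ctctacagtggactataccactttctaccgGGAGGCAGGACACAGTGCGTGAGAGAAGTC
Ror1 exons 5 to 7: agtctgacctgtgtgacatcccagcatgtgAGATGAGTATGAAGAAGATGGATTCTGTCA
Ror1 exons 2 to 4: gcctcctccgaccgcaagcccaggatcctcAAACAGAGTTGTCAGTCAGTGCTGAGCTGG
Ism1 exons 2 to 3: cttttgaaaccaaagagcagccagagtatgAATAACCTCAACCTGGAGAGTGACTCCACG
The pair from Pcsk5 has the same capitals, since both begin at exon 6, and differs in lower case. The reverse holds for Bmper exons 12 to 13 and exons 7 to 13, which both end at exon 13.

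The most abundant Pcsk5 circRNA lay at chr19:17716983-17753047 (mmu_circ_0000937 in the circRNA catalogue circBase), followed by one at chr19:17749911-17753047 (mmu_circ_0000938). For Bmper they lay at chr9:23058816-23105466 (exons 3 to 6), chr9:23203794-23211275 (exons 12 to 13, mmu_circ_0015472) and chr9:23170636-23211275 (exons 7 to 13). For Ror1 they lay at chr4:100080418-100084745 (exons 5 to 7, mmu_circ_0010974) and chr4:99975485-100007121 (exons 2 to 4). The Ism1 circRNA lay at chr2:139557606-139566139. All exons of the 12 circRNAs were coding exons of the transcripts used.

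**Figure D1:**
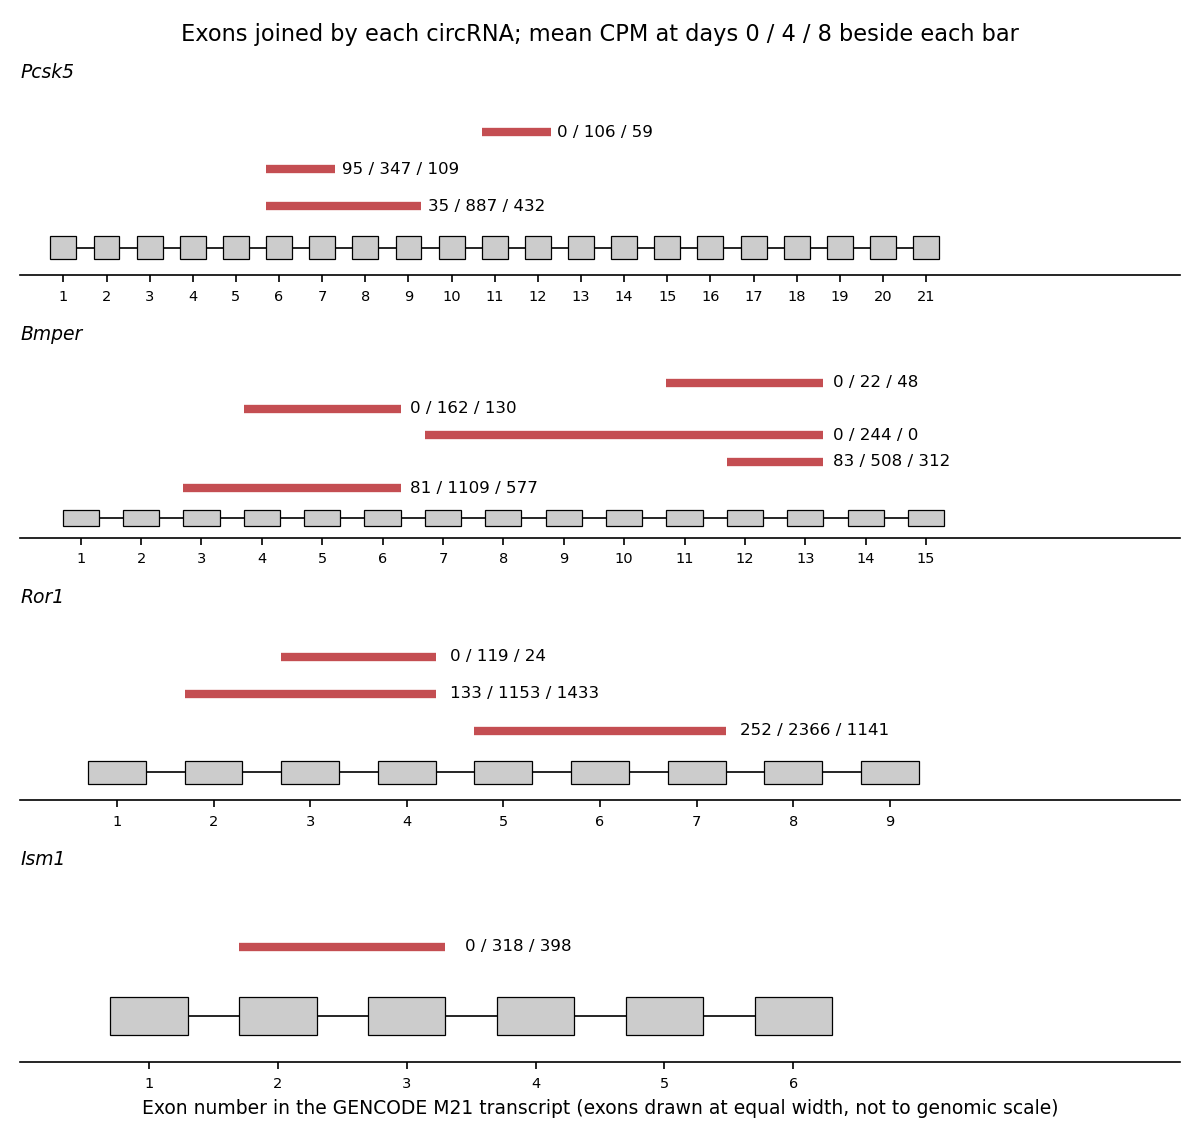
Exons joined by the 12 circRNAs. Grey boxes are the exons of each transcript in order, drawn at equal width; each red bar spans the exons of 1 circRNA, and the numbers beside it are its mean CPM at days 0, 4 and 8 (2 libraries each). Bmper circRNAs end at exon 6 or exon 13. At day 4, Ror1 exons 5 to 7 had the highest mean of the 12, 2366 CPM.

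Values are CPM, scaled by the authors so that the listed circRNAs of a library sum to 1000000. Each library's values were whole multiples of a step taken as 1 read, worth 21.9 to 24.8 CPM, and read numbers are inferred from that step. The smallest non-zero entry was 2 reads, so an entry of 0 may stand for 1 read. The libraries held 40384 to 45733 inferred reads in all, and at such depth most members rest on few reads. Across circRNAs, Spearman's rho was 0.667, 0.667 and 0.696 between the libraries of days 0, 4 and 8. The listing was selective, since each of the 3869 circRNAs had a non-zero entry in both replicates of some day. A circRNA near the detection limit was thus listed if it met this at a single day, which widens differences between days among circRNAs with few reads.

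Together the 12 circRNAs went from a trace to a small but measurable part of the pool. They held 510.5 and 847 CPM in the day 0 libraries, 7106 and 7577 CPM at day 4, and 4140 and 5188 CPM at day 8. The libraries of the 3 days did not overlap. Day 4 was the highest, at 10.8 times the day 0 mean, and day 8 stood at 6.87 times it. As a share of all circRNA CPM these were 0.0510% and 0.0847%, then 0.711% and 0.758%, then 0.414% and 0.519%.

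Pcsk5 gave 139 and 121 CPM at day 0 (6 and 5 reads), 1268 and 1411 CPM at day 4, and 441 and 758 CPM at day 8. Its day 4 level was the highest, with no overlap between days. The means were 130.1 ± 12.8, 1340 ± 101 and 599 ± 224 CPM (SD, n = 2), so that day 4 was 10.3 times day 0 and day 8 was 0.447 of day 4. On the log2(CPM + 43.7) scale of the fit the differences were 3.03 (SE 0.33) for day 4 over day 0, 1.93 (SE 0.33) for day 8 over day 0 and -1.11 (SE 0.33) for day 8 over day 4.

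The rise of the Pcsk5 sum rested largely on 1 circRNA, that of exons 6 to 9. It had 69.6 and 0 CPM at day 0 (3 and 0 reads), 809 and 966 CPM at day 4 (37 and 39 reads) and 318 and 545 CPM at day 8 (13 and 23 reads). Both day 4 libraries lay above both of day 8, and these above both of day 0. With 3 reads in all at day 0, the ratio of day 4 to day 0 from the summed reads was 24.8, with an exact 95% counting interval of 8.18 to 123, and that of day 8 to day 0 was 12.2 (3.85 to 61.9). These intervals, and those of shares below, cover counting error only.

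The circRNA of Pcsk5 exons 6 to 7 uses the same exon 6 start and was flatter. It had 69.6 and 121 CPM at day 0, then 372 and 322 CPM at day 4 and 122 and 94.8 CPM at day 8. Day 4 stood above both other days, whose libraries overlapped. Its mean was 3.64 times higher at day 4 than at day 0 and 1.14 times higher at day 8. Without the circRNA of exons 6 to 9, the Pcsk5 sum differed by 1.89 on the log2 scale between day 0 and day 4 and by 0.67 between day 0 and day 8.

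Bmper gave 255 and 72.6 CPM at day 0 (11 and 3 reads), 2034 and 2055 CPM at day 4, and 784 and 1350 CPM at day 8. The day 0 libraries differed from each other by more than those of day 4, and the days did not overlap. Means were 164 ± 129, 2044 ± 15.4 and 1067 ± 400.4 CPM (SD, n = 2), with day 4 at 12.5 times day 0 and day 8 at 0.522 of day 4. Against the first day 0 library alone, day 4 was 8.01 times higher, and against the second it was 28.1 times higher. In the fit, day 4 was higher than day 0 by 3.53 (SE 0.49) on the log2 scale and day 8 by 2.61 (SE 0.49), and day 8 stood at -0.91 (SE 0.49) against day 4.

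Its leading circRNA, exons 3 to 6, had 162 and 0 CPM at day 0, then 1203 and 1015 CPM at day 4 and 514 and 640 CPM at day 8. The order of the days was that of the sum, in every library. The circRNA of exons 12 to 13 had 92.8 and 72.6 CPM at day 0, then 372 and 644 CPM at day 4 and 220 and 403 CPM at day 8. Here the libraries of days 4 and 8 overlapped, and both days stood above day 0.

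The circRNA of Bmper exons 7 to 13 was listed at day 4 alone. It had 241 and 248 CPM there (11 and 10 reads) and entries of 0 in the 4 libraries of the other days. It shares its exon 13 end with the circRNA of exons 12 to 13, which had reads in all 6 libraries. It made up 11.8% and 12.0% of the Bmper reads at day 4 (Wilson 95% intervals 6.73 to 19.9% and 6.68 to 20.8%), against 0 of 32 and 0 of 57 Bmper reads at day 8 (upper Wilson bounds 10.7% and 6.31%). The day 8 bounds take an entry of 0 as no reads, although it may hide an unlisted read. On that basis the interval of the first day 8 library overlaps those of day 4, and that of the second does not. An unlisted read would raise the bounds, so nothing is concluded from the lack of overlap. The circRNA was listed, and met the minimum of reads, through its day 4 entries alone, which favours a contrast with day 8.

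Bmper's circRNAs fell into 2 groups by their end, 2 that end at exon 6 and 3 that end at exon 13, and the balance between these groups was similar at days 4 and 8. The exon 6 group held 67.7% and 56.6% of Bmper reads at day 4 and 65.6% and 66.7% at day 8, and the 4 Wilson intervals overlapped (lowest bound 45.9%, highest 79.6%). At day 0 the gene had too few reads for such a share.

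Ror1 had the highest circRNA level of the 4 genes from day 4 on. It gave 116 and 654 CPM at day 0 (5 and 27 reads), 3564 and 3714 CPM at day 4, and 2474 and 2724 CPM at day 8. The day 0 libraries lay far apart, and the later days did not overlap with them or with each other. Means were 385 ± 380.2, 3639 ± 106 and 2599 ± 177 CPM (SD, n = 2), with day 4 at 9.46 times and day 8 at 6.75 times day 0. The log2 differences in the fit were 3.50 (SE 0.66), 3.07 (SE 0.66) and, for day 8 over day 4, -0.43 (SE 0.66). Leaving out 1 day 0 library moved the first between 2.45 and 4.58 and the second between 2.01 and 4.15.

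**Figure D2:**
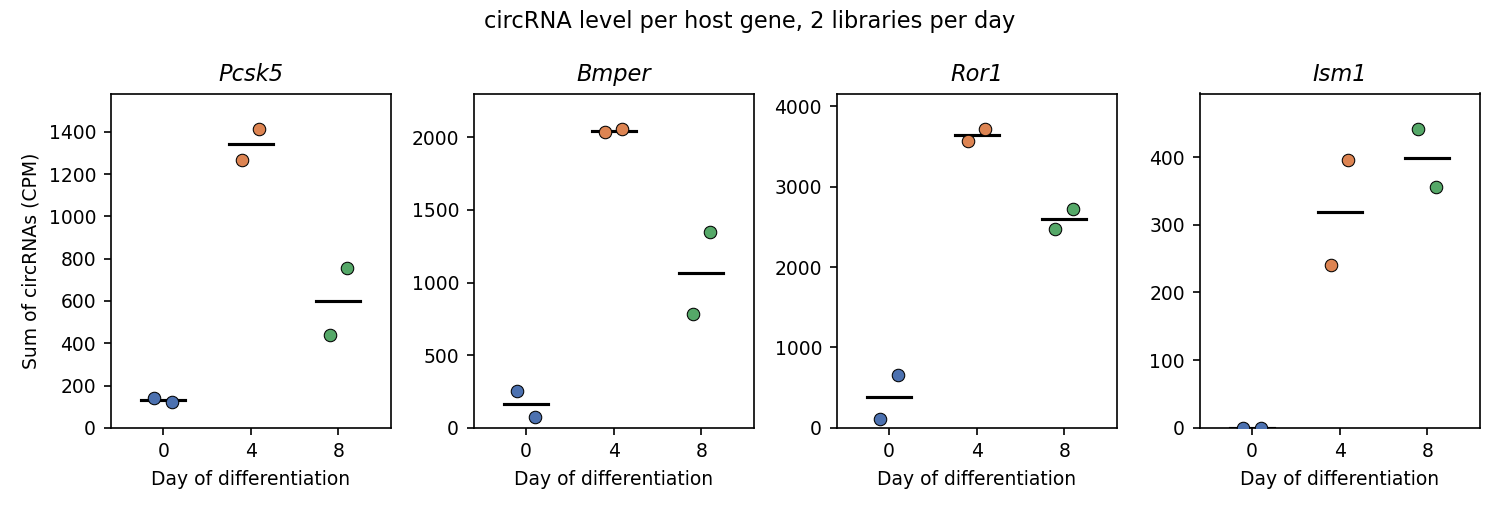
Sum of the circRNAs of each host gene in CPM (vertical axes from 0, a separate scale per gene) by day of differentiation; each point is 1 library and each line the mean of 2. Pcsk5, Bmper and Ror1 are highest at day 4, while the days 4 and 8 libraries of Ism1 (241 to 441 CPM) overlap.

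The 2 main Ror1 circRNAs lie side by side on the gene, and their mean CPM moved in different directions after day 4. That of exons 5 to 7 had 116 and 387 CPM at day 0, then 2034 and 2699 CPM at day 4 and 980 and 1303 CPM at day 8. That of exons 2 to 4 had 0 and 266 CPM at day 0, then 1465 and 842 CPM at day 4 and 1445 and 1421 CPM at day 8. The first was at 0.482 of its day 4 mean by day 8, with no overlap of libraries. The second was at 1.24 times its day 4 mean, and its day 8 libraries lay between those of day 4. In the fit, day 8 over day 4 was -0.98 (SE 0.49) for the first and 0.40 (SE 0.89) for the second. Neither passed (limma adjusted p = 0.346 and 0.871), and the difference between the 2 circRNAs was not tested.

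Their shares of the Ror1 reads come from the same values, so they are no separate evidence. These 2 circRNAs hold nearly all Ror1 reads, so a lower share of 1 means a higher share of the other. Exons 5 to 7 held 57.1% and 72.7% at day 4 (Wilson 95% intervals 49.4 to 64.4% and 65.0 to 79.2%) and 39.6% and 47.8% at day 8 (30.6 to 49.4% and 38.9 to 56.9%). Both day 8 shares were below both day 4 shares, although the intervals of the first day 4 library and the second day 8 library overlapped. The intervals of the 2 day 4 libraries did not overlap each other. Exons 2 to 4 took up most of the rest, with 41.1% and 22.7% at day 4 and 58.4% and 52.2% at day 8. The share was not put to a test, since reads of 1 gene in 1 library are not replicates.

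**Figure D3:**
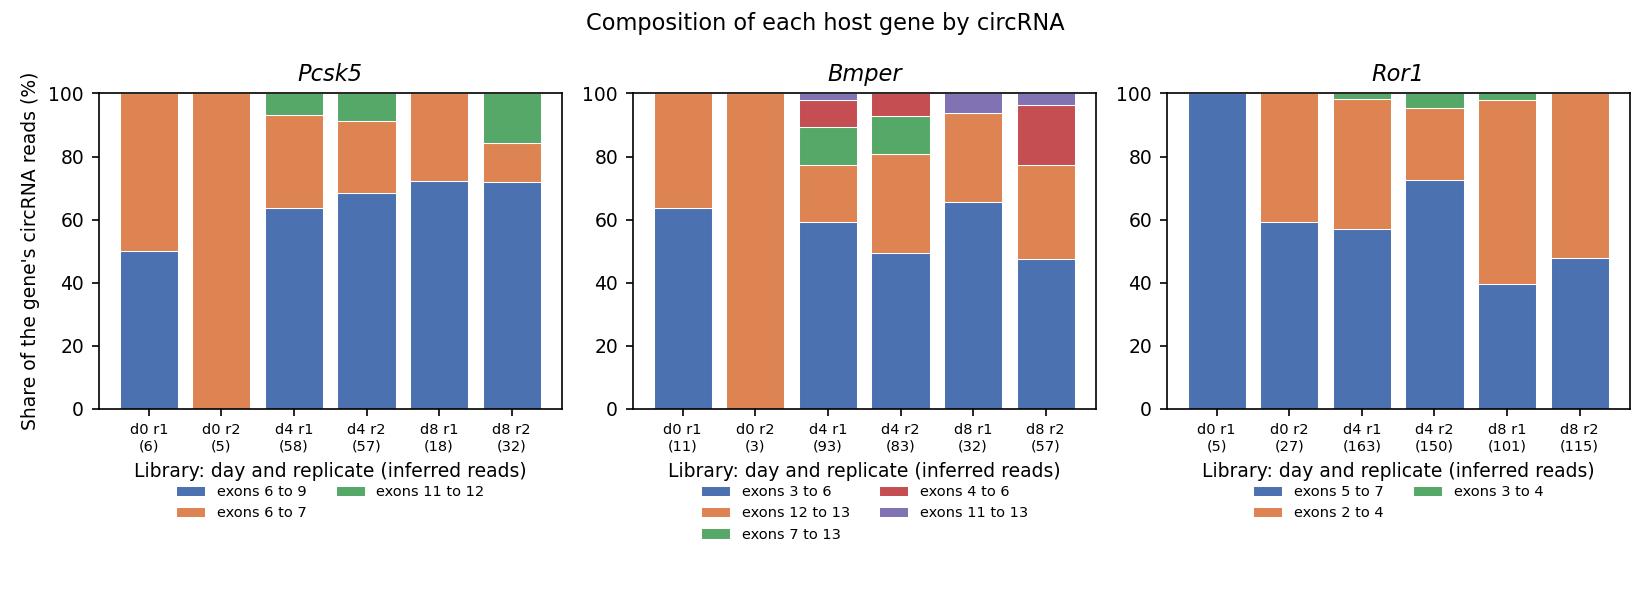
Share of each circRNA in the inferred circRNA reads of Pcsk5, Bmper and Ror1 (percent, stacked to 100), by library; the number of reads is in brackets under each bar. The Ror1 bars show exons 5 to 7 at 57.1 to 72.7% at day 4 and 39.6 to 47.8% at day 8, and the day 0 bars rest on 3 to 27 reads.

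Ism1 had a single listed circRNA, exons 2 to 3. Its mean was highest at day 8, as were those of Ror1 exons 2 to 4 and, with few reads, Bmper exons 11 to 13. Both day 0 entries of Ism1 were 0. The day 4 libraries had 241 and 396 CPM (11 and 16 reads) and the day 8 libraries 441 and 355 CPM (18 and 15 reads). Its day 4 and day 8 libraries overlapped, with means of 318 ± 110.1 and 398 ± 60.6 CPM (SD, n = 2). Day 8 over day 4 was 0.36 (SE 0.52) on the log2 scale. No fold over day 0 is given, because both libraries were listed at 0. A fitted difference from day 0 is set by the pseudocount for such a gene, and that of day 4 was 3.02 on the log2 scale with 43.7 CPM, 8.28 with 1 CPM and 11.6 with 0.1 CPM.

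The other 4 circRNAs were Pcsk5 exons 11 to 12, Bmper exons 4 to 6, Bmper exons 11 to 13 and Ror1 exons 3 to 4. All were listed at 0 in both day 0 libraries and had 0 to 8 reads at day 4 and 0 to 11 reads at day 8. The highest entry among them was 261 CPM, for Bmper exons 4 to 6 in the second day 8 library, while the first was listed at 0. Apart from Pcsk5 exons 11 to 12, each shares 1 end with a more abundant circRNA of its gene.

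**Figure D4:**
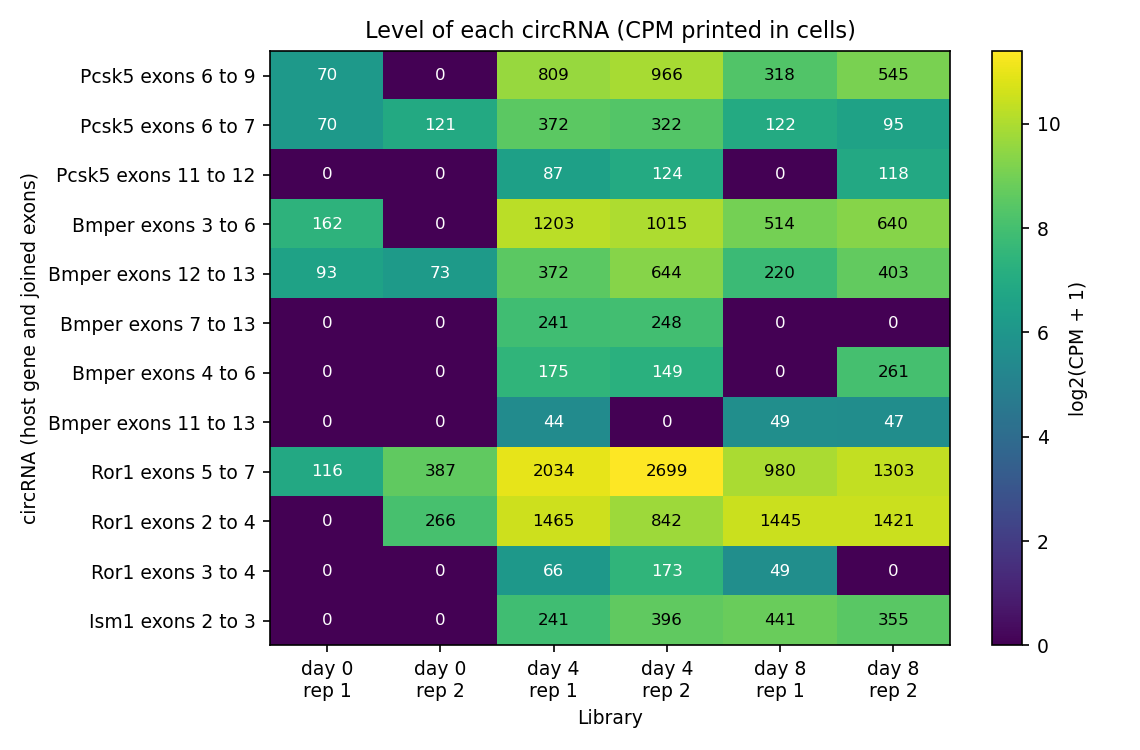
CPM of the 12 circRNAs (rows) in the 6 libraries (columns); colour is log2(CPM + 1) and the deposited CPM, rounded, is printed in each cell. The dark day 0 columns hold entries of 0 for 6 circRNAs in both libraries (50.0% of the 12, against 17.4% of all listed circRNAs). Bmper exons 7 to 13 has entries above 0 at day 4 alone.

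Across the 12, 11 had both day 4 libraries above both day 0 libraries, against 21.7% of all listed circRNAs. For day 8 over day 0 it was 7 of 12 against 26.2%, and for day 4 over day 8 it was 6 of 12 against 22.0%. Both later days stood above day 0 for 6 of 12 (7.86% of all), and 3 of 12 had day 4 above day 8 above day 0 (2.17%). The sums were set beside 2508 loci, which are the 4 sums and the circRNAs elsewhere joined where they overlap. All 4 sums had day 4 above day 0 (20.9% of loci), day 8 above day 0 (26.9%) and both together (8.17%), 3 of 4 had day 4 above day 8 (21.7%), and the same 3, Pcsk5, Bmper and Ror1, had day 4 above day 8 above day 0 (2.43%). The genes were picked for such differences, so nothing is read from these counts.

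In limma over all 3869 circRNAs, 6 of the 12 passed as higher at day 4 against day 0 (called, with a Benjamini-Hochberg adjusted p under 0.05), where 4.01% of all circRNAs did, and 0 as lower (4.24%). They were Pcsk5 exons 6 to 9, Bmper exons 3 to 6, 12 to 13 and 7 to 13, Ror1 exons 5 to 7 and Ism1 exons 2 to 3. Pcsk5 exons 6 to 9 and Bmper exons 3 to 6 each lost the call in 7 of 14 alternatives. Among these were pseudocounts of 1 (limma adjusted p = 0.142 and 0.211) and 0.1 (0.231 and 0.320). Ism1 exons 2 to 3 also lost it in 7 alternatives, Ror1 exons 5 to 7 in 5 and Bmper exons 7 to 13 in 4. Bmper exons 12 to 13 was near the threshold (limma adjusted p = 0.049) and lost its call in 12 of 14 alternatives, among them both other scalings (0.058 and 0.056) and each library left out (adjusted p up to 0.201). For day 8 over day 0, 4 were called higher, against a background of 7.55%, and 0 lower (4.88%). These were Pcsk5 exons 6 to 9, both main Ror1 circRNAs and the Ism1 circRNA. Pcsk5 exons 6 to 9 and Ror1 exons 5 to 7 each lost the call in 8 of 14 alternatives, among them both other pseudocounts. The Ism1 circRNA lost it in 3. Ror1 exons 2 to 4 was also near the threshold (limma adjusted p = 0.0499) and lost its call in 11 of 14 alternatives, among them both other scalings (0.051 and 0.052) and both other pseudocounts (0.225 and 0.321). Between days 4 and 8, 1 of the 12 was called, Bmper exons 7 to 13, lower at day 8, where 3.46% of all circRNAs were called lower, and 0 higher (6.10%). Among the 1368 circRNAs with 10 reads or more in 2 libraries or more, fitted alone, it was not called (0.292% called lower). Its entries of 0 at days 0 and 8 show no spread between libraries, and its SE was 0.34. Of the calls over day 0, 2 at day 4 and 1 at day 8 were of circRNAs listed at 0 in both day 0 libraries. The calls depended on single libraries. With any 1 library left out, fewer of the 12 were called for day 4 over day 0. Over all circRNAs the share called higher was lower there too.

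The sums of all 4 genes were called higher in the same kind of model over 2508 loci at day 4 (3.91% of loci called higher) and at day 8 (8.25%), each against day 0. Between days 4 and 8, 0 of the 4 passed in limma (9.97% of loci called in either direction), and Pcsk5 had an unadjusted p under 0.05. The calls over day 0 were not stable. That of Ism1 at day 4 was lost with a replicate block (limma adjusted p = 0.067), where 3.55% of loci were called higher. It was also lost on omission of any single library, and that of Bmper, at either day, in 5 of 6 such omissions. Over all loci, the share called higher at day 4 was lower in each omission too. At day 8 it was lower without a library of day 0 or of day 8. When limma saw days 0 and 8 alone, 9.21% of 2444 loci were called higher, and of the 4 sums Ism1 was. When it saw days 0 and 4 alone it called 0 of 2382 loci, so the loss there says nothing of these genes. The median log2 difference of the 12 circRNAs was 2.48 for day 4 over day 0, 1.47 for day 8 over day 0 and -0.83 for day 8 over day 4, beside 0, 0.05 and 0.06 over all circRNAs. In another version, members listed at 0 in both libraries of a compared day took the log2 ratio of mean CPM, without pseudocount or scaling. The day at 0 was set there to 3 reads over the 2 libraries, and the other members kept their fitted values. The medians were then 2.48, 1.70 and -0.83. They mix 2 scales, so their distance from the first medians is not the effect of the 3 reads alone.

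Features of the members were set beside those of the table, and shared ends and spans come from the positions that the rule used. Of the 12, 9 shared a back-splice end with another listed circRNA, against 48.9% of the table, and 7 had no circBase identifier, 4 of them from Bmper. In all, 41.7% of the members had an identifier, against 63.1% of the table. Genomic spans ran from 906 bp (Ror1 exons 3 to 4) to 46651 bp (Bmper exons 3 to 6), with a median of 8076 bp beside 7871 bp over the table. With all annotated exons between the joined ends included, which the table does not measure, the circles would hold 2 to 7 exons and 257 to 1169 bases. Their length would be a multiple of 3 in 2 cases, Pcsk5 exons 6 to 9 (576 bases) and Bmper exons 3 to 6 (357 bases), each the most abundant circRNA of its gene at days 4 and 8.

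The introns beside the junctions were long, again by the GENCODE M21 transcripts. Of 17 different introns that flank a member, 14 were longer than the median intron of their transcript. The Ror1 circRNA of exons 2 to 4 follows the longest intron of its gene (intron 1, 206570 bp), and the Ism1 circRNA follows that of Ism1 (intron 1, 53062 bp). The 3 Bmper circRNAs that end at exon 13 precede intron 13, the longest of that gene with 66614 bp. For Pcsk5 the longest, intron 1, flanks no member, and the median flanking intron had 21872 bp against 4979 bp over the transcript. Long flanking introns are a known general trait of circRNAs, and no comparison with other hosts was made.

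Other loci had similar courses over the 6 libraries. Among 1134 loci outside the 4 windows that passed the same minimum of reads, the closest to Pcsk5 by Pearson's r of the log2 values was a locus of 3 circRNAs at chrX:126581861-126643917 (r = 0.98), whose levels were 371 and 436 CPM at day 0 and 1290 and 1832 CPM at day 4. For Bmper it was a single circRNA at chr14:70656167-70667313 (r = 0.99). For Ror1 it was a locus at chr10:115954373-115986231 (r over 0.99), which had 859 and 1283 CPM at day 0 and 1880 and 1956 CPM at day 4, a much smaller span of levels. For Ism1 it was a circRNA at chr4:9510959-9538085 (r over 0.99), also listed at 0 in both day 0 libraries, with 175 and 248 CPM at day 4 and 269 and 261 CPM at day 8. The second closest loci lay at chr6:8487817-8532790 for Pcsk5, chr16:13603121-13647392 for Bmper, chr12:4664821-4673132 for Ror1 and chr10:55843317-55871659 for Ism1. With 6 points on 3 days, and the best of 1134 taken, such values are a description of these libraries.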

How the data were processed

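CircRNA levels were measured by sequencing of 6 libraries, 2 at each of days 0, 4 and 8. The authors deposited CPM values, which sum to 1000000 in each library over the listed circRNAs. Per the submitters' processing notes, FastQC 0.11.9, HISAT2 2.2.0 and the build mm9 were used. The circRNA caller was not given in the sources used here. Depth was 40384 to 45733 inferred reads per library. Columns were matched to samples by day and replicate number in their names.

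From these CPM values, limma 3.58.1 (R 4.3.3) was fitted with a mean-variance trend to log2(CPM / factor + 43.7) over all 6 libraries. The pseudocount is the smallest non-zero value, and the factors are trimmed means of M-values. All circRNAs were above 0 in at least 2 libraries and were tested, and p-values were adjusted over the whole table. Fold changes on this scale understate those of low circRNAs. Sums were fitted beside the loci of other circRNAs joined by overlap on the strand. The method was also run on simulated data, and no result of that run is used here as support for a call. Tests on read counts were planned as alternatives but not run, because values of 1 read are missing. With 2 libraries against 2, an exact permutation test cannot go below p = 0.333, and none was used. Alternatives covered scaling, pseudocounts, a minimum of 10 reads in 2 libraries, a replicate block, entries of 0 set to 1 read, the circRNAs in a sum, and libraries left out.

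Members and lists were chosen with earlier results of these data known. CircRNAs that reached 10 reads in 2 libraries were described singly, and the 2 most similar loci were named per gene. Planned lists of convertases, BMP and Wnt genes and cell markers need host names on mm9 and were not analysed. Intervals of shares are Wilson 95% intervals (scipy 1.17.1).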

Additional observations from a re-analysis of the deposited data

How the results depend on the processing

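In every alternative, the log2 differences of the 4 sums over day 0 stayed above 0, while their calls were often lost. With 1 library left out, the log2 difference of day 4 over day 0 ran over 2.98 to 3.11 for Pcsk5, 2.87 to 4.20 for Bmper, 2.45 to 4.58 for Ror1 and 2.73 to 3.30 for Ism1. For day 8 over day 0 it ran over 1.56 to 2.33, 1.96 to 3.28, 2.01 to 4.15 and 3.26 to 3.52. For Ism1 these values are set by the pseudocount, since day 0 was listed at 0 (8.28 and 8.68 with a pseudocount of 1, 11.6 and 12.0 with 0.1, all called). A lone library is assumed there to vary like the other days. In these fits the share of all loci called higher was lower too, except at day 8 without a library of day 4. At day 4, the call was lost for Pcsk5 without the first day 0 or either day 4 library, for Bmper when any 1 library but the first of day 0 was left out, for Ror1 without either library of day 4 or day 8, and for Ism1 when any 1 of the 6 was left out. At day 8, it was lost for Pcsk5 without either library of day 0 or day 4, for Bmper likewise with any but the first of day 0, for Ror1 without either of day 4 or day 8, and for Ism1 without either of day 8. In a fit of the 2 days alone, the calls were lost at day 4 for Pcsk5 (3.03), Bmper (3.52), Ror1 (3.50) and Ism1 (3.03), and at day 8 for Pcsk5 (1.93), Bmper (2.61) and Ror1 (3.07), with fewer samples. That fit called 0 of 2382 loci at day 4 and 363 of 2444 at day 8. Ror1 was not called with pseudocounts of 1 (3.77 at day 4, 3.33 at day 8) and 0.1 (3.78 and 3.33), nor Bmper at day 8 with 0.1 (3.02). Without their most abundant circRNA the Pcsk5 sum (1.89 and 0.67) and the Ror1 sum at day 4 (3.48) were not called. The cause was not tested. The Ror1 sum, not called between days 4 and 8, changed sign there without its most abundant circRNA (0.26).

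The number of the 12 circRNAs called ran from 0 to 4 with 1 library left out for day 4 over day 0, from 0 to 3 for day 8 over day 0 (0 without either day 8 library in limma, with 6 and 2 at an unadjusted p under 0.05, and 2 without either day 4 library) and from 0 to 2 between days 4 and 8 (0 without the first day 8 library, limma, with 2 at an unadjusted p under 0.05). In the fits of 2 days alone that number was 0 (limma, 11, 7 and 5 at an unadjusted p under 0.05). There 0 of 3657, 0 of 3747 and 0 of 3715 circRNAs were called in all. For day 8 over day 0, 1 of the 12 was called higher with either pseudocount, 1 or 0.1 (6.93% and 6.90% of all circRNAs). Among circRNAs that reached 10 reads in 2 libraries, 0 members were called between days 4 and 8 (limma, 2 at an unadjusted p under 0.05). Of all fitted there, 0.731% were called higher and 0.292% lower. The share of all circRNAs at that unadjusted p was not computed, so nothing is read from those counts. Setting entries of 0 to 1 read lowered the mean share of Pcsk5 exons 6 to 9 at day 8 from 72.0% to 70.1% and that of Ror1 exons 5 to 7 at day 0 from 79.6% to 64.3%, a choice made after seeing the data. With the replicate number as a block, 5, 5 and 1 of the 12 were called, against 6, 4 and 1, and the Ism1 sum at day 4 (3.02) was not called. It changed no other sum's call. The labels give no shared source for a number, and deviations of same-numbered libraries were uncorrelated (r = -0.01 in each pair of days). The planned count tests were not run, and Ism1, with 1 circRNA, has no sum without it. The low read numbers at day 0 limit every ratio to that day.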
